A study of Mus musculus with 9 samples.

Results

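Serine, one-carbon and amino acid synthesis genes were examined in Hepa1-6 cells, a mouse hepatoma cell line, after exposure to the pleuromutilin antibiotics lefamulin and tiamulin. The set held 10 genes, Asns, Pycr1, Phgdh, Psat1, Psph, Shmt2, Mthfd2, Aldh1l2, Cth and Pck2, found by symbol among 21970 protein-coding genes of the 56748 genes in the count table. All 10 had at least 192 reads in every library and were among the 14510 genes tested. RNA-Seq libraries came from 3 groups of 3, which were cells given 37 µg/mL lefamulin for 2 days, cells given 37 µg/mL tiamulin for 2 days, and a control that the sample labels describe as receiving no manipulation and the methods of the study as vehicle. All groups came from the same line in medium with serum, penicillin and streptomycin, and the sources name no genetic change in any group. No source states that the 3 libraries of a group came from separate cultures, so p values measure the spread between these libraries, which may be technical. Both comparisons with control used the same 3 control libraries.

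Cells make serine from a phosphoglycerate of glycolysis through PHGDH, PSAT1 and PSPH, and SHMT2, MTHFD2 and ALDH1L2 then carry a carbon unit of serine through the mitochondrial folate pathway, which supplies formate, glycine and NADPH. ASNS makes asparagine, PYCR1 completes proline synthesis, CTH releases cysteine from cystathionine, and PCK2 makes phosphoenolpyruvate from oxaloacetate inside mitochondria. Many of these genes are known targets of ATF4, the transcription factor of the integrated stress response, and hepatocytes use several of the pathways for gluconeogenesis and sulfur metabolism. Lefamulin and tiamulin share the tricyclic pleuromutilin core and differ in the side chain attached to it.

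Each library held 15568887 to 18008105 counted reads. One of them, tiamulin 2, stood apart. Its counts differed from those of tiamulin 1 and 3 with a chi-square of at least 18.1 per degree of freedom, against at most 7.57 for the other pairs within a group, and genes rich in GC were counted more in it (Spearman's rho of 0.737 across 8157 genes between GC content and the deviation from the group mean). The same measure was −0.609 and −0.643 in tiamulin 1 and 3, 0.564 and −0.556 in controls 1 and 2, and between −0.176 and 0.208 in the other 4 libraries. Among the 10 genes, Pycr1, Phgdh, Shmt2, Aldh1l2 and Pck2 had their highest level in tiamulin 2, and their results are given with and without it. For a single gene of another list, the value without it is given where the call of a printed log2 value changed or that value moved by over 1.5 times. The hepatocyte lineage markers Alb and Afp were present, with mean control levels of 207 and 284 FPKM (reads scaled to gene length and library depth), while Ttr and Apoa1 were at or near 0. Of 7 tested markers of this lineage, Trf rose and Alb and Hnf4a fell with lefamulin, and Krt18 rose and Afp, Alb and Apob fell under tiamulin. Alb fell under both drugs (log2 values of −0.24, adjusted p = 0.0166, and −0.50, adjusted p = 7.56e-05) and Afp under tiamulin (−0.81, adjusted p = 5.45e-07). Without tiamulin 2, 1 rose and 3 fell under lefamulin, where Afp passed as well (−0.12, adjusted p = 0.0253), and 2 rose and 4 fell under tiamulin, where Krt8 (0.12, adjusted p = 0.0427) and Hnf4a (−0.12, adjusted p = 0.0466) passed as well. Among 11 markers of leukocytes, fibroblasts and endothelium, the summed level was 9.78 to 10.1 FPKM in controls, 11.1 to 16.1 under lefamulin and 15.4 to 20 under tiamulin. Adgre1 and Cd3e had no read in any library, and Ptprc had at most 16 reads. Of the 6 tested, Ptprc, Cd68 and Pecam1 rose under both drugs and Pdgfra fell under lefamulin (−0.46, adjusted p = 0.00559). DESeq2 gave no adjusted p for Ptprc and called Cd68 and Pecam1 higher under both drugs. The part of these markers in the results below was not tested. In bulk RNA, a change in the share of cells that express a gene and a change in RNA per cell cannot be told apart.

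The upstream bases of 8 of the 10 genes were matched in the RefSeq promoter table, build GRCm38.p6, and the genes without an entry were Cth and Aldh1l2. Windows of 300 bases, from 250 before to 50 after the annotated start, were searched on both strands for TGATGNAA, the core of the C/EBP-ATF response element that ATF4 can occupy, for TGATGCAA, a form of it and thus always counted in both, and for the E-box CACGTG. TGATGNAA was found at Asns, Pycr1 and Pck2, in 3 of the 8 genes, and in 4.51% of the 27025 genes of the table. TGATGCAA was found at Pycr1 alone among the 8, and in 1.03% of all genes. CACGTG was found in 0 of the 8 and in 8.09% of all genes. The 3 stretches that hold a match are shown 5′ to 3′ on the strand of the gene, with the matched bases in capitals, because they are the sequences that can be compared with the changes of these genes given below.
Asns: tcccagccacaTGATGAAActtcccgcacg
Pycr1: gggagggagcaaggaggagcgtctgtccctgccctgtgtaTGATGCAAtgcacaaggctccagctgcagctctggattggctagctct
Pck2: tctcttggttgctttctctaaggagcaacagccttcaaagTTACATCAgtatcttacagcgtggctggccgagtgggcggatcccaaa
The Asns stretch is chr6:7693214-7693243 on the minus strand, and its match begins 23 bases before the RefSeq start, inside an exon and untranslated region of the transcript Asns-201 in GENCODE M21. The Pycr1 stretch is chr11:120643804-120643891 on the minus strand, where the match begins 103 bases before the start and lies in no annotated transcript. The Pck2 stretch is chr14:55540123-55540210 on the plus strand, where the match reads on the opposite strand, also begins 103 bases before the start, and lies in an intron of Gm10876. A match describes letters only, and the windows without one say nothing on whether ATF4 acts there.

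The question of the lefamulin and tiamulin comparisons was how each drug changed the transcriptome of hepatoma cells. Under lefamulin, 8 of the 10 genes rose at an adjusted p below 0.05, against 7.09% of all tested genes, and 0 fell, against 6%. Under tiamulin, 10 of 10 rose, against 9.08%, and 0 fell, against 7.34%. The 10 genes were chosen with earlier results of these data known, so the shares set beside them are descriptions. The largest changes were those of Cth, 2.52-fold under lefamulin (95% confidence interval 2.27 to 2.8) and 3.31-fold under tiamulin (2.98 to 3.67), and of Aldh1l2, 2.1-fold (1.91 to 2.32) and 2.86-fold (2.59 to 3.15). The smallest were those of Phgdh, 1.08-fold (0.97 to 1.2) and 1.18-fold (1.06 to 1.31).

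DEGs in the study passed an adjusted p below 0.05 and an absolute value of the log2 fold change above 1, in either direction. By both thresholds, Aldh1l2 and Cth rose under lefamulin, 2 of 10 against 0.979% of tested genes in that direction. Pycr1, Psph, Aldh1l2 and Cth did so under tiamulin, 4 of 10 against 1.05%. Every treated library lay above every control library for 10 of 10 genes under lefamulin, against 18.9% of tested genes, and for 10 of 10 under tiamulin, against 17.1%. The median log2 fold change of the 10 genes was 0.46 under lefamulin and 0.76 under tiamulin, beside −0.002 and 0.003 for all tested genes. At an unadjusted p below 0.05 in edgeR and with DESeq2, the number that fell was also 0 of 10. Without tiamulin 2, the number that rose was 10 of 10 under lefamulin, against 12.2% of tested genes, and 10 of 10 under tiamulin, against 11.7%.

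**Figure D1:**
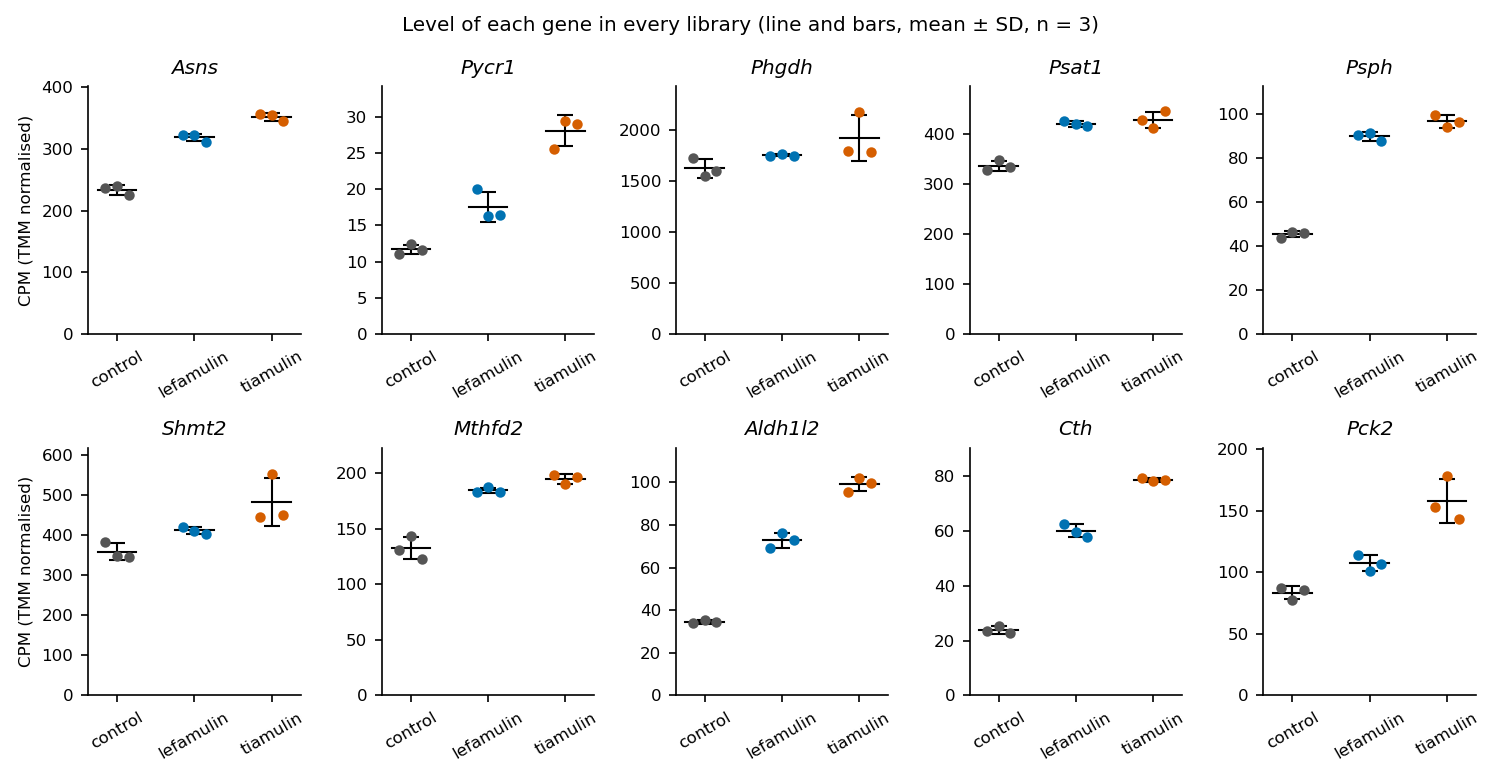
Levels of the 10 genes in every library, in CPM (counts scaled to library size by TMM) on linear axes that start at 0, with 1 point per library and black bars for the mean ± SD (n = 3). In every panel the 3 control libraries lie below all treated libraries, and in Pycr1, Phgdh, Shmt2, Aldh1l2 and Pck2 the highest point is tiamulin 2.

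PHGDH catalyses the entry step of serine synthesis. In CPM, counts scaled to the size of the library, its level was 1734, 1548 and 1603 in controls 1, 2 and 3, then 1753, 1765 and 1747 with lefamulin, and 1797, 2184 and 1790 under tiamulin. The groups did not overlap, but the highest control and the lowest lefamulin library were 1734 and 1747, and only tiamulin 2 stood clear of the rest. Under lefamulin its log2 fold change did not pass, at 0.11 (SE 0.07, adjusted p = 0.36). Under tiamulin it was 0.24 (SE 0.07, adjusted p = 0.032), and without tiamulin 2 it was 0.14 (adjusted p = 0.0105). The tiamulin call was lost without control 2 (adjusted p = 0.137), without control 3 (0.124) and without any of the 3 lefamulin libraries (0.0563 to 0.0575). The lefamulin call was gained without tiamulin 2 (adjusted p = 0.0267), at the same log2 fold change of 0.11.

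Psat1, for the transaminase of the next step, was at 329, 348 and 335 CPM in controls, 427, 421 and 416 with lefamulin, and 429, 413 and 446 under tiamulin. Both treated groups lay above the controls and overlapped each other. The change on the log2 scale was 0.32 with lefamulin (SE 0.05, adjusted p = 0.000797) and 0.35 with tiamulin (SE 0.05, adjusted p = 0.000304). Psph, for the phosphatase that releases serine, changed more. It was at 43.8, 46.4 and 45.7 CPM in controls, 90.2, 91.4 and 87.5 with lefamulin, and 99.6, 93.8 and 96.3 under tiamulin. Each treated library was thus far above the controls, with log2 fold changes of 0.99 (SE 0.06, adjusted p = 1.81e-07) and 1.09 (SE 0.06, adjusted p = 4.8e-08). Along the serine pathway the entry step had the smallest log2 fold change and the final step the largest under both drugs.

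In the mitochondrial folate pathway, SHMT2 splits serine into glycine and a folate-bound carbon. Shmt2 was at 383, 348 and 345 CPM in controls, 421, 411 and 404 with lefamulin, and 445, 552 and 451 under tiamulin. Tiamulin 2 was again the highest, and the lefamulin libraries lay between the other groups. The change on the log2 scale was 0.20 with lefamulin (SE 0.08, adjusted p = 0.101) and 0.43 with tiamulin (SE 0.08, adjusted p = 0.00135). Without tiamulin 2 these were 0.20 (adjusted p = 0.000516) and 0.32 (adjusted p = 3.9e-06), so that the lefamulin value passed. Phgdh and Shmt2 had the highest GC contents of the 10 genes, 57.2% and 57.4%, and with offsets for GC content and length both passed under lefamulin (adjusted p of 0.0156 and 0.000149).

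Mthfd2 encodes the enzyme that oxidises the carbon carried by mitochondrial folate. It was at 131, 143 and 123 CPM in controls, 183, 187 and 183 with lefamulin, and 198, 190 and 196 under tiamulin. The treated groups were narrow and clear of the controls, with log2 fold changes of 0.48 (SE 0.06, adjusted p = 0.000136) and 0.56 (SE 0.06, adjusted p = 2.77e-05). ALDH1L2 oxidises the formyl form to carbon dioxide and makes NADPH. Aldh1l2 was at 33.9, 35.6 and 34.3 CPM in controls, 69, 76.3 and 73 with lefamulin, and 95.5, 102 and 99.8 under tiamulin. The 3 groups formed separate steps, with log2 fold changes of 1.07 (SE 0.07, adjusted p = 1.81e-07) and 1.52 (SE 0.07, adjusted p = 4.56e-09). Without tiamulin 2 the tiamulin value was 1.49 (adjusted p = 7.72e-16).

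Asns, whose product transfers an amino group from glutamine to aspartate, was at 237, 240 and 225 CPM in controls, 322, 322 and 312 with lefamulin, and 357, 355 and 345 under tiamulin. No group overlapped another. The change on the log2 scale was 0.44 with lefamulin (SE 0.05, adjusted p = 5.14e-05) and 0.59 with tiamulin (SE 0.05, adjusted p = 2.74e-06). Pycr1 had the fewest reads, from 192 to 213 in a control library and from 270 to 495 in a treated one. Its level was 11.1, 12.4 and 11.6 CPM in controls, 20, 16.3 and 16.5 with lefamulin, and 25.6, 29.5 and 29.1 under tiamulin. The spread within the treated groups was wide for this set but did not bridge the groups, and the change on the log2 scale was 0.59 with lefamulin (SE 0.11, adjusted p = 0.00262) and 1.26 with tiamulin (SE 0.11, adjusted p = 2.43e-06). Without tiamulin 2 the tiamulin value was 1.23 (adjusted p = 2.67e-09).

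Cth, the cysteine-releasing enzyme of transsulfuration, was at 23.4, 25.3 and 22.6 CPM in controls, 62.6, 59.5 and 57.9 with lefamulin, and 79.3, 78 and 78.4 under tiamulin. The tiamulin libraries had a coefficient of variation of 0.817%, the lowest of any group of this gene. The change on the log2 scale was 1.34 with lefamulin (SE 0.07, adjusted p = 4.15e-08) and 1.72 with tiamulin (SE 0.07, adjusted p = 2.74e-09), which placed Cth at rank 126 and rank 48 among the 14510 log2 fold changes. Pck2 was at 87.2, 77.2 and 85.5 CPM in controls, 114, 101 and 107 with lefamulin, and 153, 178 and 143 under tiamulin. All 3 groups were apart, and tiamulin 2 was the highest. For Pck2 the log2 change was 0.37 with lefamulin (SE 0.08, adjusted p = 0.00939), lost without lefamulin 1 (0.058), and 0.92 with tiamulin (SE 0.08, adjusted p = 4.22e-06), or 0.83 without tiamulin 2 (adjusted p = 4.72e-11).

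**Figure D2:**
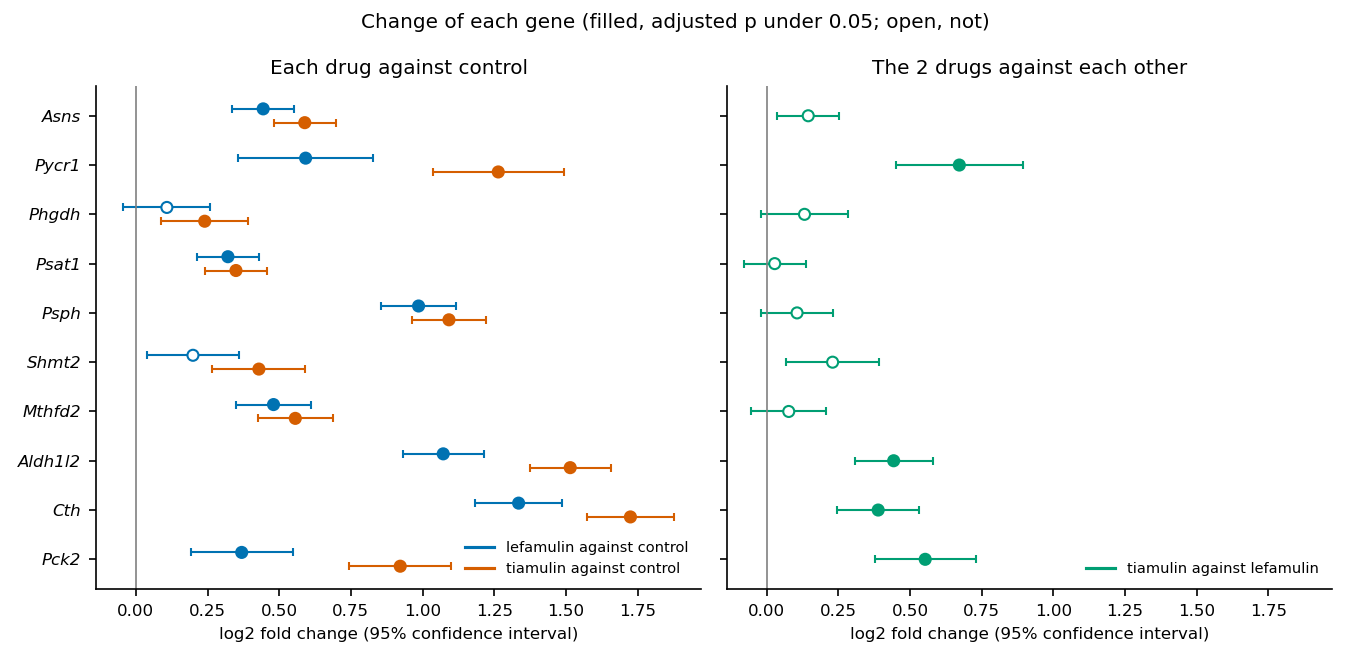
Log2 fold changes of the 10 genes (points) with 95% confidence intervals (bars) for each drug against control on the left and tiamulin against lefamulin on the right, filled where the adjusted p was below 0.05. All 30 points lie above 0, and the filled points on the right are Pycr1, Aldh1l2, Cth and Pck2.

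Lefamulin and tiamulin, which differ in the side chain, were compared directly at the same dose and time in 10 genes, with p values adjusted over all 14510 tested genes. Pycr1, Aldh1l2, Cth and Pck2 were higher under tiamulin, 4 of 10 against 2.85% of tested genes, and 0 of 10 were lower, against 2.05%. The difference was 1.59-fold for Pycr1 (95% confidence interval 1.37 to 1.86, adjusted p = 0.00276), 1.47-fold for Pck2 (1.3 to 1.66, adjusted p = 0.00209), 1.36-fold for Aldh1l2 (1.24 to 1.49, adjusted p = 0.00149) and 1.31-fold for Cth (1.19 to 1.45, adjusted p = 0.00502). Without tiamulin 2 the log2 difference was 0.46 for Pck2 (adjusted p = 9.05e-06), beside 0.55 with it, 0.64 for Pycr1 (0.000284), beside 0.67, and 0.42 for Aldh1l2 (3.91e-05), beside 0.44. The other 6 genes did not pass. Their tiamulin levels were 1.02-fold those under lefamulin for Psat1 (0.946 to 1.1), 1.05-fold for Mthfd2 (0.964 to 1.15), 1.08-fold for Psph (0.986 to 1.17), 1.1-fold for Phgdh (0.987 to 1.22), 1.11-fold for Asns (1.03 to 1.19, adjusted p = 0.112) and 1.17-fold for Shmt2 (1.05 to 1.31, adjusted p = 0.0952). These intervals exclude a difference of the size seen for Pycr1 in all 6 genes, but they do not show that the compounds act alike. Every tiamulin library lay above every lefamulin library for 9 of the 10 genes, all but Psat1, against 13.6% of tested genes. Asns passed without tiamulin 2 (adjusted p = 0.0413), and the log2 difference of Phgdh fell from 0.13 to 0.03 and that of Shmt2 from 0.23 to 0.12 when that library was left out.

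Levels differed widely between the genes when given per length. In controls the mean FPKM was 652 ± 38.2 for Phgdh (SD, n = 3), which stood at position 32 among 11804 tested protein-coding genes. Shmt2 followed at 115 ± 6.78, Asns at 85.3 ± 3.02, Psat1 at 78.9 ± 2.31 and Mthfd2 at 37.7 ± 2.97. Pck2 at 10.6 ± 0.677 and Psph at 10.4 ± 0.314 did not differ beyond their spread. Cth was at 8.48 ± 0.503, Aldh1l2 at 4.59 ± 0.121 and Pycr1 at 2.95 ± 0.169. Under tiamulin Cth, at 28 ± 0.141 FPKM, stood above Psph (22.2 ± 0.569) and Pck2 (20.1 ± 2.4), having been below both in controls. Under lefamulin Cth, at 21.4 ± 0.821, was also above Pck2 (13.7 ± 0.834) and was near Psph (20.6 ± 0.448). The genes at the low end of this range had the larger changes. Across the 10 genes, Spearman's rho between the FPKM of controls and the change on the log2 scale was −0.85 for lefamulin and −0.89 for tiamulin, beside −0.09 and −0.11 across all 14510 tested genes. Both measures of a gene rest on the same control libraries, so these values are descriptions. GC content was also related to the log2 fold change across the 10 genes, with a rho of −0.66 for lefamulin and −0.53 for tiamulin.

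**Figure D3:**
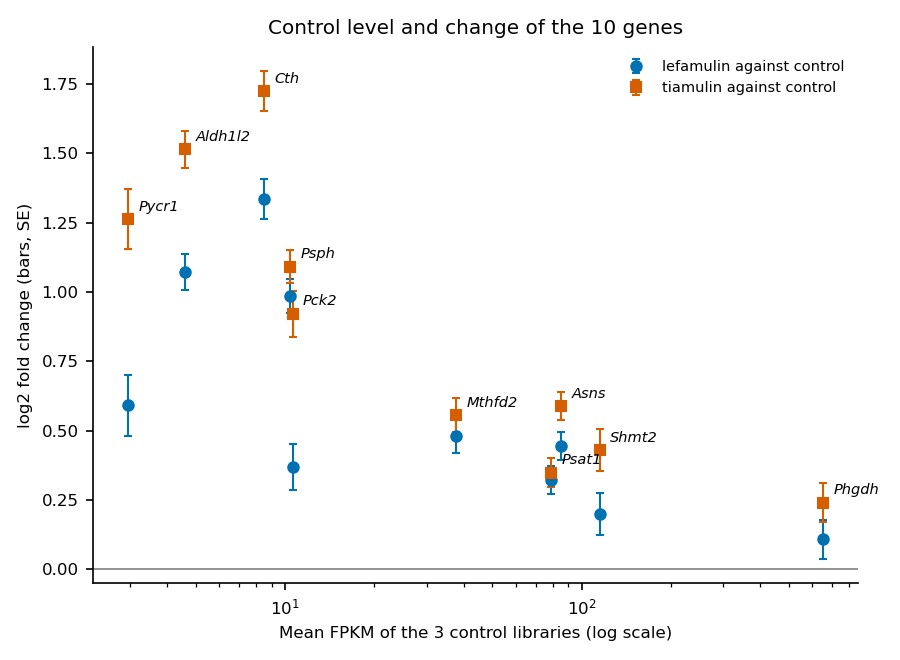
Mean FPKM of the control libraries on a log axis against the log2 fold change under lefamulin (circles) and tiamulin (squares) for the 10 genes, with bars for the SE of the log2 fold change. The 4 genes past a log2 fold change of 1 under tiamulin all lie at or below 10.4 FPKM, and Phgdh, at 652 FPKM, lies lowest.

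Mammals keep parallel folate and proline enzymes in the cytosol, and the cytosolic counterparts of 5 mitochondrial members were read beside them. Shmt1, the cytosolic serine hydroxymethyltransferase, was at 95.4, 83.7 and 82.9 CPM in controls, 75.9, 77.1 and 74.8 with lefamulin, and 69.4, 69.2 and 58.2 under tiamulin. It fell under tiamulin, by a log2 value of −0.41 (SE 0.08, adjusted p = 0.00247), and was at −0.20 under lefamulin (adjusted p = 0.11), where it passed without tiamulin 2 (adjusted p = 0.0199). Between the drugs its log2 difference was −0.21 (adjusted p = 0.144), and −0.25 without that library (adjusted p = 0.0291). Mthfd1, the cytosolic enzyme that interconverts folate forms, fell under both drugs, with log2 fold changes of −0.30 (adjusted p = 0.0168) and −0.36 (adjusted p = 0.00481). Per length, the ratio of Shmt2 to Shmt1 was 5.13 ± 0.104 in controls, 6.77 ± 0.143 under lefamulin and 9.22 ± 1.05 under tiamulin (ratio of FPKM, SD, n = 3). That of Mthfd2 to Mthfd1 was 1.77 ± 0.115, 3.05 ± 0.183 and 3.36 ± 0.394. For both pairs the ratios of treated and control libraries did not overlap.

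The ratio of Aldh1l2 to its counterpart had a lower mean in both treated groups than in controls, with overlap between lefamulin and control libraries. Aldh1l1, the cytosolic counterpart of Aldh1l2, was sparse, with 42, 36 and 42 reads in controls, 116, 107 and 82 with lefamulin, and 134, 152 and 159 under tiamulin. It rose under both drugs, with log2 fold changes of 1.45 (SE 0.18, adjusted p = 0.00012) and 1.97 (SE 0.18, adjusted p = 4.36e-06). The ratio of Aldh1l2 to Aldh1l1 was 9.14 ± 0.94 in controls, 7.16 ± 1.57 under lefamulin and 6.64 ± 0.358 under tiamulin. Pycrl, listed under this older symbol for the cytosolic pyrroline-5-carboxylate reductase, had log2 fold changes of −0.36 under lefamulin (adjusted p = 0.0439), where it fell, and −0.24 under tiamulin (adjusted p = 0.148), where it passed without tiamulin 2 (−0.35, adjusted p = 0.0103). The ratio of Pycr1 to Pycrl was 0.13 ± 0.0125 in controls, 0.25 ± 0.0111 under lefamulin and 0.371 ± 0.0283 under tiamulin, so the ratios of treated and control libraries did not overlap here either, and the cytosolic gene stayed the more abundant. Pck1, the cytosolic form of Pck2 and a marker of gluconeogenic liver, had 1 read in lefamulin 1 and none elsewhere.

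**Figure D4:**
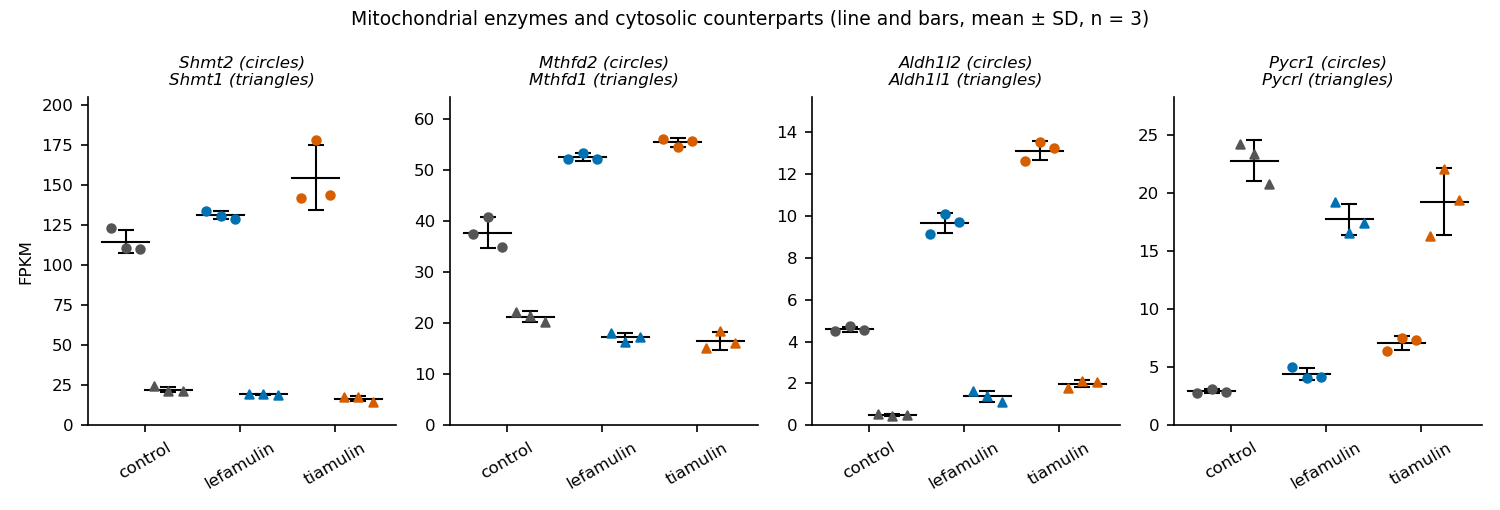
FPKM of 4 mitochondrial enzymes (circles) and their cytosolic counterparts (triangles) in every library, on linear axes from 0, with black bars for the mean ± SD (n = 3). Circles rise from control to tiamulin in all panels, while the triangles of Shmt1 and Mthfd1 lie lower in treated libraries and those of Aldh1l1 lie higher.

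Other genes of the same pathways were counted from lists of known function. Each count can be set against the share of all tested genes, of which 7.09% rose and 6% fell under lefamulin and 9.08% rose and 7.34% fell under tiamulin. Among 23 tested folate and glycine cleavage genes outside the set, 3 rose and 2 fell with lefamulin, and 3 rose and 6 fell under tiamulin, with median log2 fold changes of −0.02 and −0.03. Those counts are 13% raised and 8.7% lowered under lefamulin, and 13% and 26.1% under tiamulin. Without tiamulin 2, 5 rose and 3 fell under lefamulin, when 12.2% of all tested genes rose and 12.7% fell. DESeq2 called 2 raised and 1 lowered under lefamulin, and 2 raised and 6 lowered under tiamulin. Aldh1l1 was the gene of that list past both thresholds. The following genes of the small counts were named after their values were seen. Amt, of the glycine cleavage system, rose under both drugs (0.64, adjusted p = 0.0423, and 0.63, adjusted p = 0.0361), with the tiamulin call lost without tiamulin 2 (0.57, adjusted p = 0.0628) and both calls lost with DESeq2 (adjusted p of 0.0601 and 0.0523), and Ggh, which trims folate polyglutamates, rose under lefamulin (0.41, adjusted p = 0.0344). Tyms, the thymidylate synthase that consumes a folate-bound carbon, fell under both, by log2 values of −0.26 (adjusted p = 0.0447, and 0.0568 with DESeq2) and −0.66 (adjusted p = 8.09e-05). Under tiamulin Gcsh, Slc25a32 and Atic also fell, with values from −0.25 to −0.18. Of 14 tested genes of serine use and the methionine cycle, 0 rose and 1 fell with lefamulin, and 1 rose and 1 fell under tiamulin. Under lefamulin the edgeR count at an unadjusted p below 0.05 was 3 raised and 2 lowered, DESeq2 called 0 in either direction, and without tiamulin 2 edgeR called 2 raised and 2 lowered. Under tiamulin, leaving out that library gave 1 raised and 2 lowered, with Ahcy, which clears the by-product of methylation, passing as lower (−0.21, adjusted p = 0.00312), when 11.7% of all tested genes rose and 11.3% fell. The gene that fell under lefamulin was Csad, of taurine synthesis (−0.43, adjusted p = 0.0439, and 0.0582 with DESeq2). Sdsl, a serine dehydratase-like gene, had log2 fold changes of 0.26 (adjusted p = 0.35) and 0.67 (adjusted p = 0.0113). Mat2a, which makes S-adenosylmethionine, was at 0.16 under lefamulin (adjusted p = 0.17, and 0.00423 without tiamulin 2) and fell under tiamulin, with a log2 fold change of −0.29 (adjusted p = 0.0141). It was also lower under tiamulin than under lefamulin, by a log2 difference of −0.46 (adjusted p = 0.00373).

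Of 18 tested genes of proline, glutamate, aspartate and arginine metabolism, 3 rose and 1 fell with lefamulin, and 4 rose and 1 fell under tiamulin. Without tiamulin 2, 3 fell under tiamulin and 2 under lefamulin, when 11.3% and 12.7% of all tested genes fell. Got1, the cytosolic aspartate transaminase, rose under both (0.31, adjusted p = 0.0102, and 0.26, adjusted p = 0.0206). Under tiamulin the ornithine transaminase Oat fell (−0.23, adjusted p = 0.0134), and the gene that fell under lefamulin was Pycrl. Aldh18a1, which catalyses the entry steps of proline synthesis upstream of Pycr1, was at 152, 127 and 132 CPM in controls, 194, 184 and 183 with lefamulin, and 219, 271 and 214 under tiamulin. It rose under both drugs, with log2 fold changes of 0.45 (adjusted p = 0.00424) and 0.78 (adjusted p = 4.04e-05). Gpt2, the mitochondrial alanine transaminase, rose by log2 fold changes of 0.56 (adjusted p = 0.000184) and 0.94 (adjusted p = 1.35e-06) and was higher under tiamulin than under lefamulin by 0.38 (adjusted p = 0.00868). Only 2 of the 5 genes listed under gluconeogenesis other than Pck2 had enough reads to test, Slc25a1 and Pcx. Slc25a1, a citrate carrier and not a gluconeogenic enzyme, rose under both drugs (0.48, adjusted p = 0.00127, and 0.45, adjusted p = 0.0016). The gluconeogenic enzyme pyruvate carboxylase, Pcx, did not pass, at −0.12 and −0.23 (adjusted p of 0.667 and 0.358), the latter being −0.38 without tiamulin 2 (adjusted p = 0.0648).

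Among 20 tested regulators and feedback genes of the ATF4 pathway, 9 rose and 0 fell with lefamulin, and 13 rose and 1, the kinase gene Eif2ak2, fell under tiamulin (−0.26, adjusted p = 0.018). At an unadjusted p below 0.05 in edgeR 1 fell under lefamulin, and DESeq2 called 0 lower. Without tiamulin 2, 13 rose and 1, Dele1, fell under lefamulin (−0.33, adjusted p = 0.00414), and 13 rose and 1 fell under tiamulin. Atf4 itself was at 451, 439 and 427 CPM in controls, 545, 528 and 527 with lefamulin, and 563, 660 and 572 under tiamulin. It rose under both drugs, with log2 fold changes of 0.28 (SE 0.06, adjusted p = 0.00801) and 0.45 (SE 0.06, adjusted p = 0.000196). The stress-induced partner Ddit3 was at 33.2, 31 and 31.8 CPM in controls, 82, 84.9 and 85.1 with lefamulin, and 71.8, 79.5 and 69.6 under tiamulin. Ddit3 rose by 1.39 and 1.20 (adjusted p of 2.5e-08 and 7.94e-08), and Atf3 by 1.24 and 1.04 (1.93e-07 and 1.02e-06). Chac1, which degrades glutathione, rose by 1.34 and 1.71 (4.15e-07 and 3.28e-08), and the ATF4 inhibitor Trib3 by 1.16 and 1.34 (8.03e-06 and 1.65e-06). Tiamulin against lefamulin, 2 of the 20 genes were higher, against 2.85% of all tested genes, and 1 was lower, against 2.05%. Chac1 (0.37, adjusted p = 0.0258) and Vldlr (0.32, adjusted p = 0.035) were higher, as were the 4 members above, and Eif2ak2 was lower (−0.35, adjusted p = 0.00953). Atf4 (0.17, adjusted p = 0.136), Trib3 (0.18, adjusted p = 0.337), Ddit3 (−0.19, adjusted p = 0.118) and Atf3 (−0.21, adjusted p = 0.132) did not pass. Without tiamulin 2, Ddit3 and Atf3 passed as lower under tiamulin, at −0.25 (adjusted p = 0.0108) and −0.24 (adjusted p = 0.0246). Atf4 was then at 0.09 (adjusted p = 0.171) and Trib3 at 0.01 (adjusted p = 0.926). In that fit 3 genes of the list were higher and 4 lower, when 4.93% and 3.86% of all tested genes were.

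Of 12 tested amino acid transporters, 8 rose and 0 fell under each drug, or 66.7% raised against 7.09% and 9.08% of all tested genes, with medians of 0.40 and 0.38. At an unadjusted p below 0.05 in edgeR and with DESeq2 the number that fell was also 0. Slc3a2, the shared heavy chain of several transporters, rose by log2 fold changes of 0.71 (adjusted p = 3.24e-06) and 0.74 (adjusted p = 1.51e-06). Slc7a11, which imports cystine, rose by 0.52 (adjusted p = 0.000232) and 0.80 (adjusted p = 4.03e-06). Slc7a11 was also higher under tiamulin than under lefamulin, by 0.27 (adjusted p = 0.0402).

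**Figure D5:**
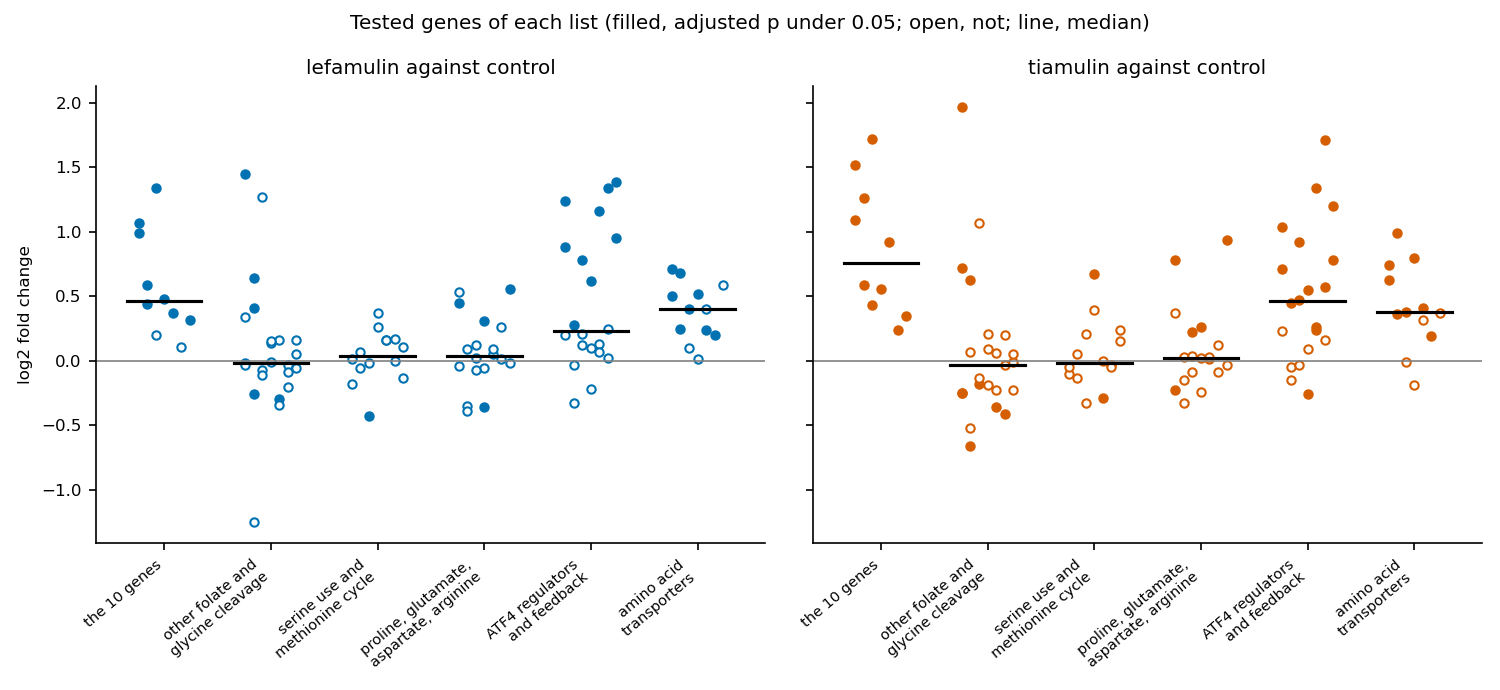
Log2 fold changes of every tested gene of 6 lists under lefamulin (left) and tiamulin (right) against control, with 1 point per gene, filled where the adjusted p was below 0.05, and a line at the median of each list. The medians of the 10 genes are 0.46 and 0.76, those of the other folate genes −0.02 and −0.03, and under tiamulin the 3 other metabolic lists hold both raised and lowered genes.

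Positions of the genes are those of the deposited files. A comparison of 52036 nuclear genes with GRCm38 found the same start and end for 2.76% of them, so these positions are not to be combined with the promoter coordinates above, and their build is not settled. Cth (ENSMUSG00000028179) spans 157599885 to 157630714 on chromosome 3, Aldh1l2 (ENSMUSG00000020256) spans 83323314 to 83370004 on chromosome 10, Psph (ENSMUSG00000029446) spans 129842622 to 129864513 on chromosome 5, and Pycr1 (ENSMUSG00000025140) spans 120526538 to 120534595 on chromosome 11, all on the minus strand. Phgdh (ENSMUSG00000053398) spans 98220486 to 98247306 on chromosome 3, Psat1 (ENSMUSG00000024640) spans 15882042 to 15924701 on chromosome 19, Shmt2 (ENSMUSG00000025403) spans 127352992 to 127358313 on chromosome 10, Mthfd2 (ENSMUSG00000005667) spans 83282673 to 83302890 on chromosome 6, and Asns (ENSMUSG00000029752) spans 7675169 to 7693254 on chromosome 6, again on the minus strand. Of the 10 genes, Pck2 (ENSMUSG00000040618), from 55777723 to 55788699 on chromosome 14, is the one on the plus strand. Strand use in counting is not given in the sources used here.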

How the data were processed

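RNA-Seq was read from Hepa1-6 cells in 9 libraries, 3 per group, grouped by the sample labels. The authors deposited read counts per gene without normalization, and FPKM, which equalled the counts divided by gene length and a library total of 0.993 to 1.01 times the sum of counts. The submitters' processing notes name CASAVA 1.8, fastp, HISAT2 2.0.5, featureCounts 1.5.0-p3, DESeq2 1.20.0 and the build mm10. Here counts were tested with edgeR 4.0.16 in R 4.3.3 (TMM, filterByExpr, robust quasi-likelihood test, group as the only term, all 9 libraries in a single fit), with Benjamini-Hochberg adjustment over 14510 genes. The procedure was tested on simulated counts. CPM uses TMM factors. FPKM served to compare genes of different length, and the marker sums and the levels and ratios of counterparts were also set side by side by group in FPKM. Confidence intervals are 95% intervals from the same fit.

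The 10 genes and the other lists were chosen with earlier results of these data known. By rule, the genes named beside the 10 were the cytosolic counterparts, Atf4, Ddit3, Trib3, list genes that passed an adjusted p of 0.05 and a log2 change beyond 1 in size in any comparison, or else the 2 with the lowest adjusted p of a list, and for the 4 genes with the largest changes the 3 genes most alike over the libraries. Other list genes in the text, such as Amt, Tyms, Got1, Vldlr, Eif2ak2 and Dele1, fall outside this rule and were named after their values were seen. Alternatives were DESeq2 size factors, DESeq2 1.42.0, dropping the expression filter, a minimum of 10 reads per library, the compared groups alone, the replicate number as a block, offsets for GC content and length (GENCODE M21 transcripts, 98.2% of tested genes), both together, and leaving out each library. Strand and annotation of the counting are not given in the sources used here, so overlapping genes may share reads. Promoters are RefSeq sequences of GRCm38.p6. Some genes counted in the lists are not reported here by name.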

Additional observations from a re-analysis of the deposited data

How the results depend on the processing

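The 30 log2 fold changes of the 10 genes, 3 per gene, were refitted under 17 alternatives, of which 9 left out a library. In 486 of 510 fits the direction and the side of the threshold were kept, 8 fits lost a call, 16 gained one and 0 reversed. Calls that came or went belonged to Phgdh, Shmt2, Pck2 and Asns. Under lefamulin, Phgdh gained a call in 4 of the 17 alternatives and Shmt2 in 5, among them the fit without a filter for Shmt2 (adjusted p = 0.0214). Phgdh under tiamulin was lost with the compared groups alone (adjusted p = 0.101), with the replicate block (0.0758) and without some libraries (above). Asns between the drugs passed with DESeq2 (0.0485), with offsets for GC content and length (0.00123) and with those offsets and the replicate block (0.00323). Shmt2 between the drugs passed without a filter (0.00707), with the offsets (0.00298) and with the offsets and the block (0.00894). The cause of these shifts was not tested.

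Counts over all genes moved more. Genes called under lefamulin numbered 1900, and 3510 with the compared groups alone, 3502 with offsets for GC content and length, 3176 with those offsets and the replicate block, and 993 to 3708 when a library was left out. Under tiamulin they numbered 2383, and 3906 and 3590 with the offsets without and with the block, and 1462 to 3433 when a library was left out. Between the drugs they numbered 711, and 1076 with DESeq2, 1271 without a filter, 280 with the compared groups alone, 263 with the replicate block, 1890 and 1556 with the offsets without and with the block, and 204 to 1309 when a library was left out. The lowest values came without lefamulin 3 (204) and control 3 (993 and 1462), the highest without tiamulin 2. DEGs numbered 219, 259 and 33, and 131, 164 and 22 with at least 10 counts in every library. Between the drugs they numbered 70 without a filter, 21 with DESeq2, 18 with the compared groups alone, 18 with the replicate block, and 14 to 46 when a library was left out, with 19, 16 and 14 without lefamulin 1, 2 and 3.

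Whether the replicate numbers of the labels pair the libraries was not settled. Correlations of same-numbered libraries' deviations from their group means lay between −0.599 and 0.116 over 8176 genes, and those of differently numbered libraries between −0.548 and 0.595. The deviations also followed GC content in several libraries (above), so these correlations cannot decide it. With the replicate block, 8, 9 and 4 of the 10 genes rose in the 3 comparisons, beside 8, 10 and 4 without it. Depth limited Pycr1 most, with 192 to 213 reads in a control library. With 3 libraries per group, the intervals of Phgdh, Psat1, Psph and Mthfd2 between the drugs included 0.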

Other observations

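The genes whose log2 CPM over the 9 libraries was most alike to that of Cth, among 11804 tested protein-coding genes, were Mmp10, Ctsl and Tars, with Pearson's r of 0.997, 0.994 and 0.993. For Aldh1l2 they were Mgam, Eprs and Cs (0.996, 0.995 and 0.995), for Pycr1 they were Ptprk, Scpep1 and Usp18 (0.983, 0.982 and 0.981), and for Psph they were Ptpn14, Rhbdd1 and Ctsl (0.993, 0.991 and 0.991). Tars and Eprs encode aminoacyl-tRNA synthetases, and Cs encodes citrate synthase. The 9 points share 3 groups and their libraries' depth, so these values describe a shared order of groups and carry no p value. The changes of these genes were often smaller than those of the gene they resembled. Eprs had log2 fold changes of 0.20 under lefamulin and 0.31 under tiamulin, against 1.07 and 1.52 for Aldh1l2. Ptpn14 had larger ones than Psph, 1.80 and 2.13. Among the 100 genes most alike to Cth were 5 of the other members, and among those most alike to Phgdh was 1.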
